A study of Homo sapiens with 12 samples.

Results

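The comparison described here asks what a focal adhesion kinase inhibitor, IN10018, changed in cells that also received crizotinib. It sets 3 RNA libraries of NUGC-4 cells given both drugs (the combination) against 3 libraries given crizotinib alone. Of the 60623 genes in the deposited table, the 17096 with enough reads across all 12 libraries of the series were tested. NUGC-4 is an established human cell line, labelled as diffuse gastric cancer and as wild type. Exposure lasted 24 h, at 1 µM of each drug given, in 4 groups of 3 libraries that also include controls and IN10018 alone. Each group therefore stands for the same single line, and every library compared here had received crizotinib. Nothing in the labels tells separate cultures from repeat libraries of 1 culture, and the tests speak only of the variation among the 6 libraries, part or all of which may be technical. In bulk RNA, fewer cells of a type and less RNA per cell cannot be told apart.

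Focal adhesion kinase, encoded by PTK2, is a cytoplasmic tyrosine kinase that relays signals from integrins at the sites where cells hold on to matrix, together with SRC kinases. Crizotinib inhibits the receptor tyrosine kinases MET, ALK and ROS1. Both receptor and adhesion signals reach the RAS-ERK pathway, which switches on immediate early genes such as FOS, FOSB, JUN and EGR1, transcription factors that are induced quickly and whose transcripts decay quickly. FOS and JUN proteins pair to form the AP-1 transcription factor.

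The 6 libraries held between 13691844 and 16845001 counted reads each. Library 2 of each group stood apart. On the first principal component of all 12 libraries, which held 67.2% of the variance, crizotinib libraries 1, 2 and 3 scored -4.6, 57.8 and 10.3, and combination libraries 1, 2 and 3 scored 56.3, 91.4 and 37.8. Crizotinib library 2 thus lay among the combination libraries. Reads of mitochondrially encoded genes made up 13.3, 5.2 and 9.5% of the crizotinib libraries and 7.0, 4.3 and 6.6% of the combination libraries, lowest in library 2 of each. The common biological coefficient of variation, edgeR's measure of spread between replicates, was 0.188 in these 6 libraries and 0.0492 in the 6 control and IN10018 libraries. With the replicate number as a block, so that library 1 is set against library 1 and so on, it was 0.0962.

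As a check of the label, the epithelial markers KRT8 (1183 to 2366 reads per 1000000 after scaling, CPM) and KRT18 (587 to 1188 CPM) were abundant in the 6 libraries, EPCAM lay between 16.7 and 20.6 CPM, and KRT19 had 0 reads. Among 8 gastric markers MUC6 reached 29.05 CPM, and none of the other 7 passed 0.357 CPM in any of the 12 libraries. The fibroblast collagen COL3A1 stood at 5069 to 6654 CPM while COL1A2 stayed at or under 0.228 CPM and THY1 had 0 reads. The description label of every sample mentions adipogenesis, which no other label does. Of 8 adipocyte markers, ADIPOQ and LPL had 0 reads, LEP and CIDEC stayed at or under 0.0695 CPM, and 4 were tested. FABP4 had the highest level (67.7 to 129 CPM) and PPARG the next (17.1 to 34.01 CPM), and they moved in opposite directions. In the 6 libraries with the replicate block FABP4 was higher in the combination (0.35 ± 0.11, edgeR adjusted p = 0.023) and PPARG lower (-0.46 ± 0.12, adjusted p = 0.0069). With the block over 12 libraries both calls were lost (edgeR adjusted p = 0.16 for FABP4 and 0.072 for PPARG). Without the libraries numbered 2 the FABP4 call was lost and the PPARG call was kept. The median log2 fold change of the 4 tested markers was 0.42 with the block in 6 libraries. The summed adipocyte markers ran from 106 to 144 CPM with crizotinib and from 129 to 155 CPM with the combination, and their part in any result was not tested.

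Adding IN10018 to crizotinib lowered FOS and FOSB, and these were the only genes called in the fit of all 12 libraries. FOS encodes the founding member of the FOS family and FOSB its close relative. The promoter stretches of both are printed here because the pair fell together, beside that of EGR1, which is controlled by many of the same signals. They are RefSeq sequences of build GRCh38.p14 on the plus strand, at chr14:75278578-75278773 for FOS, chr19:45467746-45467994 for FOSB and chr5:138465229-138465478 for EGR1. Capitals mark the letters TGACGT on either strand, the core of a CREB/ATF site, and in EGR1 also the CArG box, the serum response factor motif.

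FOS: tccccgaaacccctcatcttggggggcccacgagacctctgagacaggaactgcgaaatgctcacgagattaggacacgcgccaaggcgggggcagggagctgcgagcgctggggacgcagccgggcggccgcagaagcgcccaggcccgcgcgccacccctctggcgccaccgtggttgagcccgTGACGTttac
FOSB: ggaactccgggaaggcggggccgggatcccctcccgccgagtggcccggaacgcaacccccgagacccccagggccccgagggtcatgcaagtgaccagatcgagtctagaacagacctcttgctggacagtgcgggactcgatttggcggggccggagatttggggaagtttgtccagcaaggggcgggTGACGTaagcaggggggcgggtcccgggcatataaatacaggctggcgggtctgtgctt
EGR1: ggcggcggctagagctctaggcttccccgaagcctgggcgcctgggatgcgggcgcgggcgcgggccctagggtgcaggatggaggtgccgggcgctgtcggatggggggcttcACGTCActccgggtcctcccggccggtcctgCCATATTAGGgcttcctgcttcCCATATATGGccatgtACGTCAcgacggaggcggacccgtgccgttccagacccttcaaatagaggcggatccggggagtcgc

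TGACGT begins 64 bases before the RefSeq start of FOS and 60 bases before that of FOSB. EGR1 holds it on the minus strand at 136 and 67 bases before its start, with CArG boxes beginning at 105 and 83 bases. Among all 35116 RefSeq promoters read over the same 250 bases and both strands, 7.10% hold TGACGT and 1.16% hold a CArG box. For promoters of tested genes alone the shares are 9.11% and 1.05%. Of the 20 promoters listed for 17 tested immediate early genes, 5 hold TGACGT and 2 hold a CArG box. These matches describe the letters of this window and not binding. Bases further upstream were not read, so a CArG box of FOS or FOSB outside these 250 bases would be missed.

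FOS (ENSG00000170345, chromosome 14, 75278774 to 75282230 in GENCODE 29 on GRCh38) measured 168, 145 and 120 CPM in crizotinib libraries 1, 2 and 3. In combination libraries 1, 2 and 3 it measured 9.82, 11.1 and 18.0 CPM, from 165, 160 and 294 reads. The groups lay far apart in every pairing, and the libraries numbered 2 did not stand out. The mean fell from 145 ± 24 to 13.0 ± 4.4 CPM (SD, n = 3 each), a log2 fold change of -3.48 ± 0.21 (SE), or 11.1-fold lower (edgeR adjusted p = 1.6e-06). Controls held 818, 969 and 1047 CPM and IN10018 alone 431, 375 and 414 CPM, so the level stepped down over the 4 groups with no overlap, to 1.37% of the control mean in the combination.

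FOSB (ENSG00000125740, chromosome 19, 45467995 to 45475179) measured 24.6, 27.2 and 18.0 CPM with crizotinib. With the combination it measured 2.80, 2.92 and 2.39 CPM, from 47, 42 and 39 reads. Again every combination library lay below every crizotinib library. The log2 fold change was -3.11 ± 0.21, or 8.61-fold lower (edgeR adjusted p = 3.9e-06). Controls held 369, 567 and 514 CPM and IN10018 alone 210, 186 and 191 CPM.

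Both genes passed in every model run. In the 6 libraries alone the log2 fold changes were -3.47 for FOS and -3.10 for FOSB, each with adjusted p = 0.0018. With the replicate block in those 6 libraries they were -3.48 (adjusted p = 0.00034) and -3.08 (adjusted p = 5.0e-13). Over the 26 alternatives to the 12-library fit, FOS ran from -3.80 to -3.31 and FOSB from -3.27 to -2.73, and both were called in all 26. As a share of tested genes, 0.0117% were called lower and 0% higher. At an unadjusted p under 0.05 stood 3697 genes in both directions, DESeq2 called 19 higher and 5 lower, and limma-voom called FOS and FOSB and none higher.

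**Figure D1:**
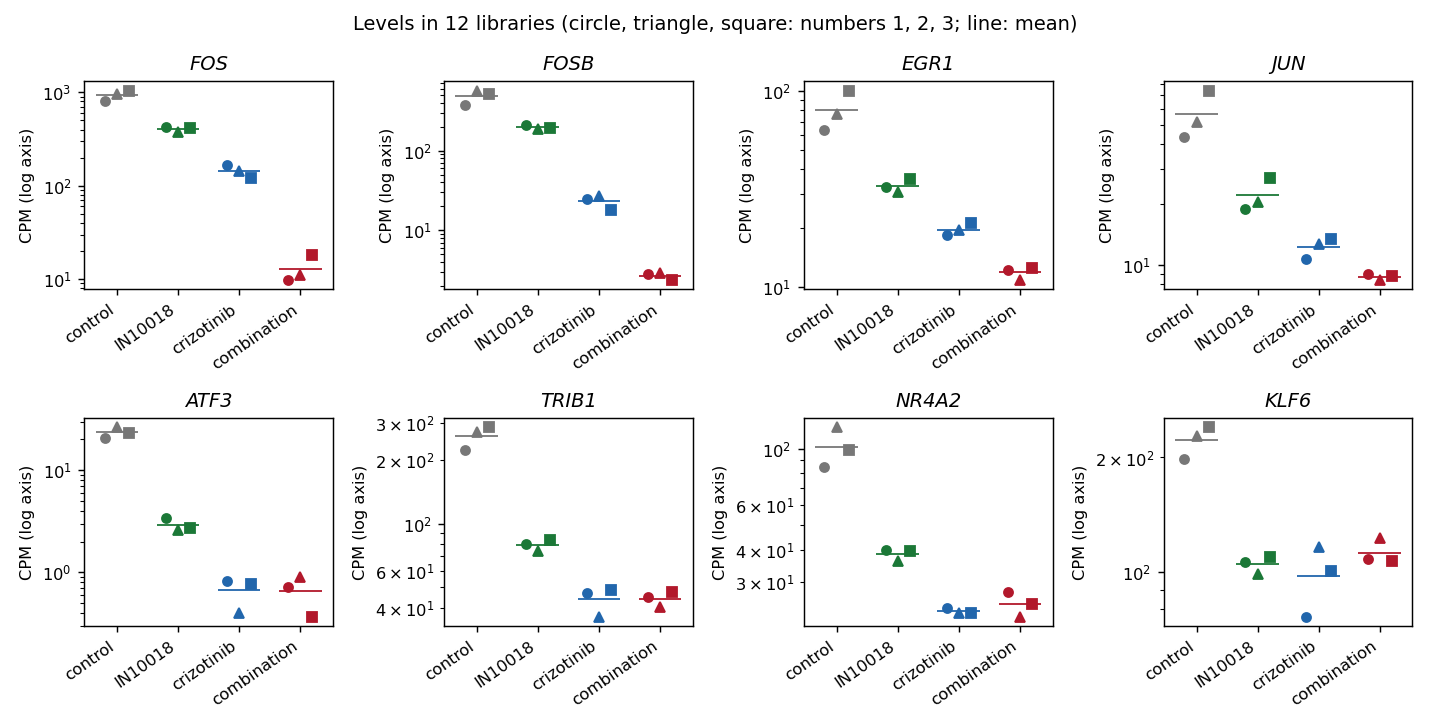
CPM on a log axis for 8 immediate early or signal-induced genes in the 4 groups; symbols are replicate numbers 1 to 3 and lines are group means. FOS and FOSB drop again from crizotinib to the combination, EGR1 and JUN are lower by less, and ATF3, TRIB1, NR4A2 and KLF6 have overlapping crizotinib and combination libraries.

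EGR1, an immediate early zinc finger factor, was lower by less, and its groups did not overlap. It measured 18.4, 19.5 and 21.2 CPM with crizotinib and 12.3, 10.9 and 12.6 CPM with the combination. Its log2 fold change was -0.72 ± 0.16, which missed the threshold in the 12-library fit (edgeR adjusted p = 0.21). With the replicate block it was called both over 12 libraries (-0.72, adjusted p = 0.035) and over 6 (-0.71 ± 0.13, adjusted p = 0.00053), and DESeq2 called it too (adjusted p = 0.034). Neither limma-voom nor the 6-library fit without the block called it. EGR1 was called in 8 of the 26 alternatives to the 12-library fit and in all 12 alternatives to the blocked 6-library fit. JUN, the main partner of FOS in AP-1, measured 10.7, 12.7 and 13.4 CPM with crizotinib and 9.04, 8.41 and 8.76 CPM with the combination. Its libraries did not overlap either, and it passed with the block in 6 libraries (-0.48 ± 0.14, adjusted p = 0.017). That call was lost with the block over 12 libraries (adjusted p = 0.077), with DESeq2 (adjusted p = 0.075), without the libraries numbered 2 (adjusted p = 0.14) and without those numbered 3 (adjusted p = 0.085).

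Few other members of the immediate early list passed. Of its 23 tested members 2 were called lower and none higher in the 12-library fit, and the median log2 fold change was -0.04, against -0.01 over all tested genes. With the block 6 of 22 were called lower (FOS, FOSB, EGR1, JUN, MYC and the ERK phosphatase DUSP1) and 2 higher (IER2 and IER3), against 11% of all genes lower and 12.1% higher. The median was -0.02 with the block and -0.17 with an offset for GC content and length, where again 6 were lower and 2 higher. Within numbers 1, 2 and 3 the medians were -0.22, -0.04 and -0.16. FOS, FOSB, EGR1 and MYC, 4 of 22 (18.2%), were lower in the blocked fit, in the blocked fit with the offset and in the blocked fit without the libraries numbered 2, against 1.97% of all genes. IER2, 1 of 22 (4.55%), was higher in the same 3 fits, against 2.47% of all genes. Without crizotinib the same list had a median of -0.87 for IN10018 against control. The MYC call was lost without the libraries numbered 1 (-0.18, adjusted p = 0.22, against -0.41), the DUSP1 call without those numbered 2 (adjusted p = 0.053), and the IER3 call without those numbered 2 (adjusted p = 0.13) or with the offset (0.09, adjusted p = 0.57). With the block over 12 libraries the calls of MYC (adjusted p = 0.092), DUSP1 (adjusted p = 0.082), IER2 (adjusted p = 0.079) and IER3 (adjusted p = 0.076) were lost as well. The 14 members not called with the block ran from -0.62 for NR4A3 (adjusted p = 0.073) to 0.27 for KLF2 (adjusted p = 0.62).

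Neither of the other FOS family members was called. FOSL1 measured 7.88, 7.88 and 8.34 CPM with crizotinib and 10.5, 8.82 and 9.37 CPM with the combination (0.26 ± 0.13, edgeR adjusted p = 0.26). FOSL2 had a log2 fold change of -0.17 ± 0.10 (adjusted p = 0.31). JUND, a JUN relative, was higher with the block, from 66.5, 136 and 87.4 CPM to 110, 203 and 129 CPM (0.63 ± 0.10, adjusted p = 0.00026). The JUND value was 0.03 with the offset (adjusted p = 0.89), and the call was lost with the block over 12 libraries (adjusted p = 0.076). FOSL2 and JUND were named after their values were seen.

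PPP1R15A, which restores translation after stress and lies outside that list, was also lower with the block. It measured 18.0, 31.0 and 19.0 CPM with crizotinib and 13.7, 16.2 and 12.7 CPM with the combination (block -0.63 ± 0.13, adjusted p = 0.0017). It is the third gene called lower over 12 libraries when an offset for GC content and gene length was used (-0.86, adjusted p = 0.015), but the blocked call was lost without the libraries numbered 2 (-0.48, adjusted p = 0.074) and with the block over 12 libraries (-0.66, adjusted p = 0.069). CCN2, a TEAD target, had 1, 2 and 1 reads with crizotinib and 0 in each combination library, too few for a fold change. KLF4 had 6, 1 and 6 reads against 1, 0 and 2.

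A second question is whether IN10018 acted differently with and without crizotinib. The interaction test compares the change from crizotinib to combination with the change from control to IN10018, which share no library. It called 12 genes, 10 higher (0.0585% of those tested) and 2 lower (0.0117%). FOS fell further on top of crizotinib, with -3.48 against -1.22 without crizotinib (interaction -2.26 ± 0.27, edgeR adjusted p = 0.0054), and so did FOSB (-3.11 against -1.31, interaction -1.80 ± 0.26, adjusted p = 0.016). IN10018 against control called 59 genes higher (0.345%) and 27 lower (0.158%), FOS and FOSB among the latter.

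In the other direction, 4 signal-induced genes fell with IN10018 alone while their crizotinib and combination libraries overlapped. ATF3, a stress-induced CREB/ATF family factor, measured 20.9, 26.4 and 23.0 CPM in controls and 3.40, 2.58 and 2.69 CPM with IN10018. It measured 0.830, 0.400 and 0.764 CPM with crizotinib and 0.714, 0.903 and 0.367 CPM with the combination (-0.01 ± 0.37, interaction 3.01 ± 0.43, edgeR adjusted p = 0.016). Only 6 to 14 reads stood behind each of those last 6 values. TRIB1, a pseudokinase that directs substrates to ubiquitination, went from 223, 272 and 285 CPM in controls to 79.7, 74.3 and 84.1 CPM with IN10018. It measured 46.8, 36.4 and 48.5 CPM with crizotinib and 44.8, 40.6 and 47.3 CPM with the combination (0.01 ± 0.13, interaction 1.72 ± 0.18, adjusted p = 0.0031).

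NR4A2, an orphan nuclear receptor of the immediate early group, showed the same order, from 84.7, 121 and 98.9 CPM in controls to 40.0, 36.3 and 39.8 CPM with IN10018. It measured 23.8, 22.5 and 22.7 CPM with crizotinib and 27.2, 21.9 and 24.4 CPM with the combination (0.09 ± 0.13, interaction 1.49 ± 0.19, edgeR adjusted p = 0.0074). KLF6, a zinc finger factor, was the fourth, with an interaction of 1.28 ± 0.19 (adjusted p = 0.022). For all 4, crizotinib against control was itself lower: by log2 fold changes of -5.13 for ATF3, -2.57 for TRIB1, -2.15 for NR4A2 and -1.18 for KLF6. FOS (-2.71) and FOSB (-4.38) were lower with crizotinib too, and yet fell again in the combination. Crizotinib against control shares the crizotinib libraries with the comparison described here.

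The other 6 interaction genes had IN10018 values below control and combination values above crizotinib, though none was called higher than crizotinib in the 12-library fit. With their interaction values, they were the histone variant gene H2AX (1.50), the zinc finger gene ZNF428 (2.89), the ribosomal protein pseudogene RPL13P12 (3.59), the zinc transporter gene SLC39A3 (1.80), the nuclear export factor gene NXT1 (1.17) and the non-coding LINC01315 (1.99). For H2AX the combination against crizotinib ran from 0.04 to 0.68 over the 26 alternatives to the 12-library fit. ZNF428 measured 8.18, 17.1 and 13.7 CPM with crizotinib and 22.5, 57.5 and 37.2 CPM with the combination, highest in library 2 of each group. RPL13P12 is a near copy of RPL13, and how reads were shared between them is not stated. Over 24 alternatives FOS and TRIB1 were called in all, NR4A2 in 21, FOSB in 18, ATF3, ZNF428 and RPL13P12 in 17 each, H2AX in 15, KLF6 in 14, SLC39A3 in 11 and NXT1 and LINC01315 in 10 each.

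These calls rest on few libraries. The count of 12 became 4 without control 1, control 2, IN10018 library 1 or combination library 3, 2 without IN10018 library 2 or 3, 3 without crizotinib library 3, 7 without combination library 2 and 805 without crizotinib library 2. FOSB lost its interaction call without any single IN10018 library or without combination library 1 or 3 (adjusted p = 0.054 to 0.087), and with limma-voom (adjusted p = 0.058), and its value ran from -1.99 to -1.56 over the 24 alternatives. NR4A2 lost the call without IN10018 library 2 or 3 or crizotinib library 3. ATF3, KLF6, H2AX, ZNF428, RPL13P12, SLC39A3, NXT1 and LINC01315 each lost it without any one of control 1, control 2, IN10018 library 2, IN10018 library 3 and crizotinib library 3.

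**Figure D2:**
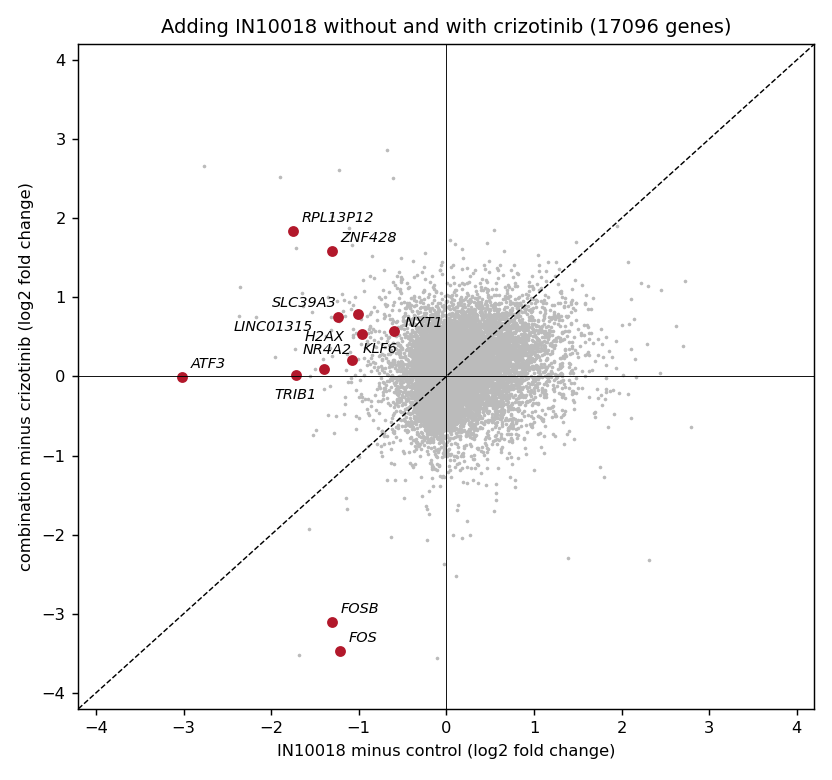
Log2 fold change of each of 17096 genes for IN10018 minus control (x) and combination minus crizotinib (y) from the 12-library fit; the dashed line marks equal change and red points are the 12 interaction genes. FOS and FOSB lie below the line at -3.48 and -3.11 on the y axis, and ATF3, TRIB1 and NR4A2 lie near 0 on it despite values of -3.02, -1.71 and -1.39 on the x axis.

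Beyond FOS and FOSB, how many genes passed depended on how the spread between libraries was modelled. The 6 libraries with the replicate block gave 1987 genes higher (12.1% of 16412) and 1803 lower (11%). Scaling by library totals changed that split to 2323 higher and 1260 lower. Without crizotinib library 2 the 12-library fit went from 0 to 2614 higher and from 2 to 3026 lower, and without combination library 1 it called ZNF428 as its single higher gene. The blocked 6-library fit has 2 residual degrees of freedom, and the block over all 12 libraries, where control and IN10018 libraries also carry the number, called 90 higher and 4 lower. Every combination library lay above every crizotinib library for 932 genes (5.45%) and below for 815 (4.77%).

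**Figure D3:**
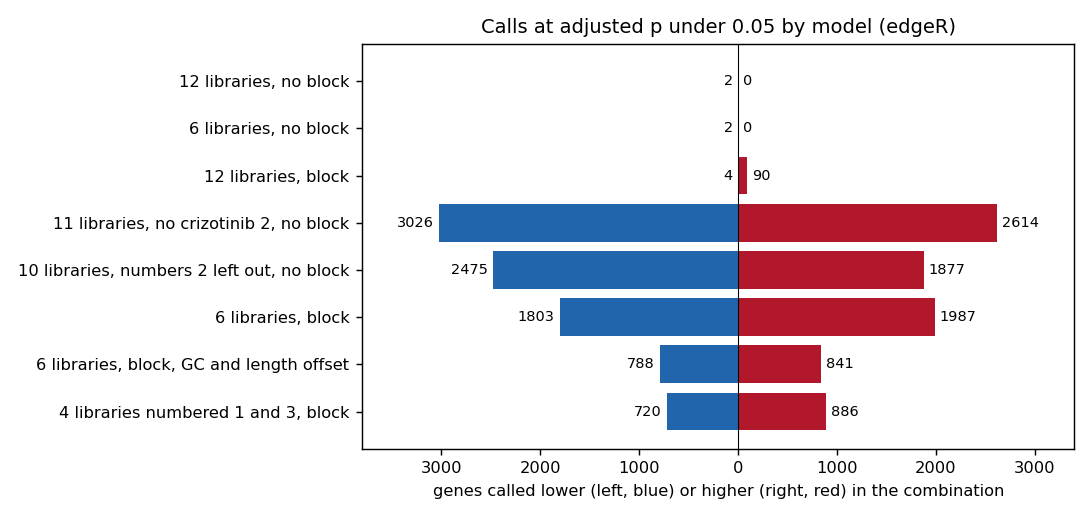
Genes called lower (blue, left) and higher (red, right) in the combination at an adjusted p under 0.05, by edgeR model. The count goes from 2 with no block to 3790 with the block in 6 libraries, and to 2614 higher and 3026 lower in the unblocked fit when crizotinib library 2 is absent.

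The fold changes moved with the base composition of the genes. Across 16866 genes with a known GC content, Spearman's rho between log2 fold change and GC content was 0.50 (Pearson's r 0.46), a description over genes that share the same 6 libraries. With genes in 10 bins of equal size by GC content, the median log2 fold change was -0.24 in the lowest bin and 0.36 in the highest. Each pairing of numbers showed it, with medians in the highest bin of 0.49, 0.36 and 0.22 for numbers 1, 2 and 3. Crizotinib library 2 differed from crizotinib libraries 1 and 3 in the same way, from -0.46 in the lowest to 0.50 in the highest bin. For IN10018 against control rho was -0.01. With an offset for GC content and length in the blocked fit, 841 genes were called higher (5.12%) and 788 lower (4.8%). Of the 3790 genes called with the block, 1125 kept their direction and call with the offset, and none were called in the opposite direction. Without the libraries numbered 2 the blocked fit of the 4 others, with 1 residual degree of freedom, called 886 higher (5.38%) and 720 lower (4.37%).

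**Figure D4:**
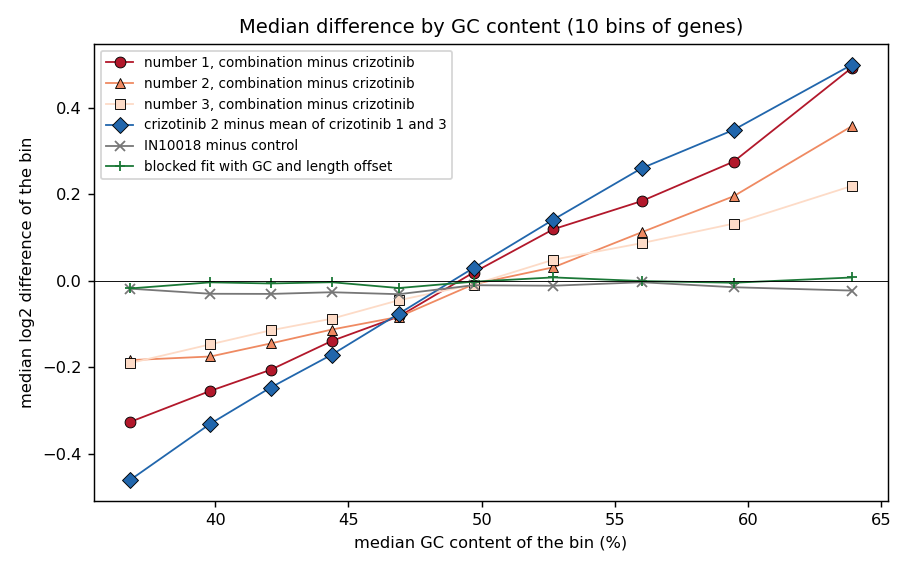
Median log2 difference in 10 bins of genes ordered by GC content, for each replicate number, for crizotinib library 2 against crizotinib libraries 1 and 3, for IN10018 against control, and for the blocked fit with the offset. The 3 pairings and crizotinib library 2 rise with GC content, and IN10018 against control and the offset fit stay near 0 by the medians plotted.

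The remaining gene groups are therefore given from the blocked 6-library fit, with the count under the offset and the count without the libraries numbered 2 beside each. None of these calls was made in the 12-library fit, where the adjusted p of the genes named below was 0.21 or above. With the block over 12 libraries CCDC85B, CFD, MUC6, PECAM1, NEAT1 and COL7A1 kept their call. The other genes given below with a log2 value called in the blocked 6-library fit lost it there, with adjusted p from 0.051 to 0.083. Called in all 3 blocked fits in the same direction were 406 genes higher and 324 lower. Each list is read against the shares of all genes given above, 12.1% higher and 11% lower with the block, 5.12% and 4.8% with the offset, and 5.38% and 4.37% without the libraries numbered 2.

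Transcripts of the mitochondrial genome that encode respiratory chain subunits, and the 2 mitochondrial ribosomal RNAs, were lower in the blocked fits. With the block 10 of 15 (66.7%) fell and none rose, with the offset 10 fell, and without the libraries numbered 2, 9 (60%) fell. The median log2 fold change was -0.84, against 0.01 for all genes. MT-ATP6, a subunit of ATP synthase, measured 5911, 1256 and 3713 CPM with crizotinib and 1788, 766 and 2000 CPM with the combination (-1.10 ± 0.16, edgeR adjusted p = 9.0e-05). MT-ND1, a complex I subunit, measured 6567, 2083 and 4649 CPM with crizotinib and 2715, 1376 and 2731 CPM with the combination (-0.87 ± 0.14, adjusted p = 0.00031). Within each number the combination was lower, but crizotinib library 2 lay inside the range of the combination libraries for both genes. None of the 15 had every combination library below every crizotinib library, against 4.77% of all genes. Mitochondrial tRNA genes were counted apart, and 7 of 20 fell and none rose with the block. Of the 49 nuclear genes of the respiratory chain, 14 (28.6%) rose and 4 (8.16%) fell with the block, 8 (16.3%) rose and 4 (8.16%) fell with the offset, and 7 (14.3%) rose and 2 (4.08%) fell without the libraries numbered 2.

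Genes of cell division were lower with the block in part. Of 57 genes of G2 and mitosis 18 (31.6%, against 11% of all genes) fell and 1 rose (PTTG1). With the offset 15 (26.3%, against 4.8%) fell and 1 rose (KIF20B), and without the libraries numbered 2, 7 (12.3%, against 4.37%) fell and none rose. KIF20A, a mitotic kinesin, measured 114, 55.3 and 84.7 CPM with crizotinib and 51.8, 37.4 and 59.3 CPM with the combination (-0.73 ± 0.12, edgeR adjusted p = 0.00024). Combination library 3 lay above crizotinib library 2, so the groups overlapped. BUB1 of the spindle checkpoint (-0.54), the cyclin gene CCNA2 (-0.48) and ECT2, which acts in cytokinesis (-0.58), also fell in all 3 blocked fits. Of 48 S phase genes 11 (22.9%) fell and 1 rose, with the offset 7 (14.6%) fell, and without the libraries numbered 2 only RRM2 and MCM2 (4.17%, near the share of all genes) fell. MCM2, a subunit of the replicative helicase, measured 57.0, 44.5 and 47.3 CPM with crizotinib and 31.1, 28.1 and 40.0 CPM with the combination, without overlap (-0.58 ± 0.12, adjusted p = 0.0018). RRM2, a ribonucleotide reductase subunit, had -0.58 ± 0.11 (adjusted p = 0.0010).

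**Figure D5:**
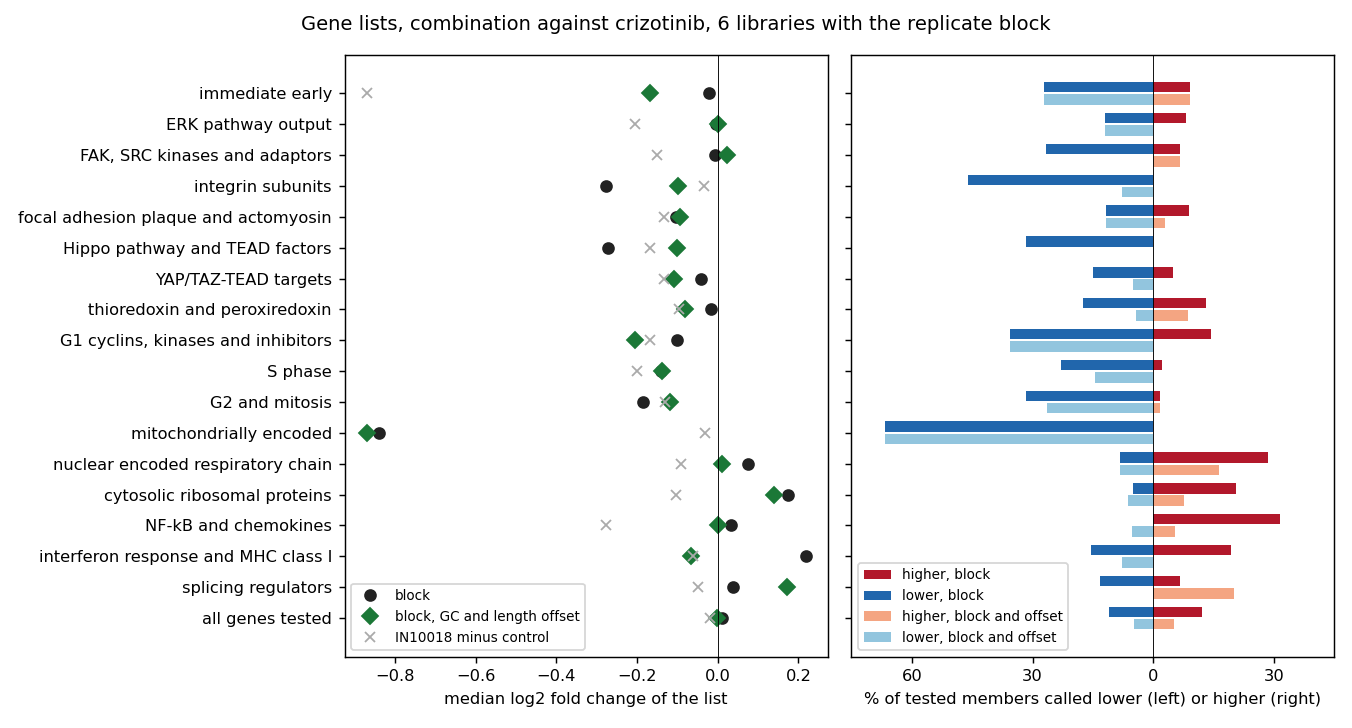
Left, median log2 fold change of 17 gene lists and of all genes with the block, with the block and the offset, and for IN10018 against control; right, the percentage of tested members called lower or higher in the blocked fits. Mitochondrially encoded genes have the lowest median with the block (-0.84), and the integrin and Hippo lists lose most of their lower calls with the offset.

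Of the genes of the drugs' own targets, MET and PTK2 were lower with the block and missed the threshold with the offset, and ALK and ROS1 were not called. MET measured 435, 282 and 381 CPM with crizotinib and 258, 205 and 314 CPM with the combination (block -0.49 ± 0.11, edgeR adjusted p = 0.0039, and with the offset -0.28, adjusted p = 0.071). PTK2 measured 296, 180 and 237 CPM with crizotinib and 190, 145 and 189 CPM with the combination (block -0.42 ± 0.11, adjusted p = 0.0074, and with the offset -0.26, adjusted p = 0.080). In both, crizotinib library 2 lay within the range of the combination libraries. EGFR, a receptor of the same ERK pathway, kept its call with the offset (-0.55 ± 0.13, adjusted p = 0.0056, and -0.43, adjusted p = 0.031) and lost it with DESeq2 (adjusted p = 0.12). With the block over 12 libraries MET (adjusted p = 0.066), PTK2 (adjusted p = 0.072) and EGFR (adjusted p = 0.073) all missed the threshold. ALK (-0.22 ± 0.25, adjusted p = 0.55), SRC (0.19 ± 0.13, adjusted p = 0.29) and PTK2B, the relative of PTK2 (-0.06 ± 0.10, adjusted p = 0.72), did not pass with the block. ROS1 had 0 of 93915952 reads in the 6 libraries, which allows up to 0.0319 CPM for counting error.

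Integrin and Hippo pathway genes also had fewer calls with the offset. Of 13 integrin subunit genes 6 (46.2%) fell with the block, among them ITGA1 (-0.53) and ITGB1 (-0.48). With the offset ITGA5 alone (7.69%) fell, and without the libraries numbered 2, 3 (23.1%) fell. Of 19 Hippo pathway and TEAD factor genes 6 (31.6%) fell with the block, YAP1 (-0.38 ± 0.11, edgeR adjusted p = 0.012) among them, none with the offset and 2 (10.5%) without the libraries numbered 2. The YAP and TAZ targets had 1 higher (5%) and 3 lower (15%) of 20 with the block, 1 lower (5%) with the offset and 2 lower (9.52%) of 21 without the libraries numbered 2. With the block and with the offset the lower shares of these targets were near those of all genes. CCN1, such a target, measured 51.4, 40.6 and 51.6 CPM with crizotinib and 53.4, 42.0 and 49.1 CPM with the combination (0.02 ± 0.10, adjusted p = 0.91). Of 23 thioredoxin and peroxiredoxin genes 3 (13%) rose and 4 (17.4%) fell with the block, 2 (8.7%) rose and 1 (4.35%) fell with the offset, and 3 rose and 1 fell without the libraries numbered 2. The higher share with the block and the lower shares with the offset and without the libraries numbered 2 were near those of all genes. TXNRD1, thioredoxin reductase, fell with the block (-0.38 ± 0.11, adjusted p = 0.014) and not with the offset (-0.24, adjusted p = 0.12), and TXN itself had -0.05 ± 0.10 (adjusted p = 0.77).

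Among genes higher with the block, several had a high GC content. CCDC85B, named with the next 4 genes after the values were seen, has a GC content of 67.7% over its exons and the largest change of these. It measured 2.31, 8.73 and 3.88 CPM with crizotinib and 10.6, 33.9 and 16.9 CPM with the combination, highest in library 2 of each (2.08 ± 0.14, edgeR adjusted p = 6.8e-10, and with the offset 1.52, adjusted p = 3.4e-06). PCSK1N, an inhibitor of a prohormone convertase (1.70, and 0.87 with the offset), and CFD, complement factor D (1.25, and 0.73 with the offset), rose as well. MUC6, a gastric gland mucin, measured 8.36, 15.0 and 5.86 CPM with crizotinib and 24.6, 29.05 and 12.4 CPM with the combination (1.20 ± 0.14, adjusted p = 3.6e-06, and with the offset 1.01, adjusted p = 0.00024). PECAM1, an adhesion molecule best known from endothelium, measured 13.3, 19.7 and 16.2 CPM with crizotinib and 25.0, 32.0 and 24.3 CPM with the combination (0.74 ± 0.12, adjusted p = 0.00025, and with the offset 0.82, adjusted p = 0.00035). Of the endothelial markers beside it, VWF and KDR had 0 reads in the 6 libraries and CDH5 measured 7.14 to 10.8 CPM. Of the leukocyte markers, CD14 measured 27.8 to 33.3 CPM and PTPRC at most 0.237 CPM. Their part in the PECAM1 result was not tested.

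The abundant nuclear non-coding RNA NEAT1, which builds paraspeckles, measured 3242, 3267 and 2707 CPM with crizotinib and 4884, 5042 and 3631 CPM with the combination. Its groups did not overlap (0.56 ± 0.13, edgeR adjusted p = 0.0051, and with the offset 0.69, adjusted p = 0.0047), and the call was lost without the libraries numbered 2 (0.51, adjusted p = 0.090). Of 78 cytosolic ribosomal protein genes 16 (20.5%) rose and 4 (5.13%) fell with the block, 6 (7.69%) rose and 5 (6.41%) fell with the offset, and 7 (8.97%) rose and 3 (3.85%) fell without the libraries numbered 2. RPL13 rose most of them, from 320, 810 and 456 CPM to 748, 1567 and 851 CPM (1.04 ± 0.12, adjusted p = 3.6e-06), while RPL30 fell (-0.57 ± 0.11, adjusted p = 0.00096). Of 19 NF-kB and chemokine genes 6 (31.6%) rose with the block, NFKBIA (0.42) and NFKBIB (0.77) among them. With the offset 1 rose and 1 fell (5.26% each), and without the libraries numbered 2, 1 rose, all near the shares of all genes or below them.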

How the data were processed

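RNA was extracted with TRIzol and made into libraries with a directional kit, per the labels' protocols. The 12 libraries' values, as the authors deposited them, are unnormalized whole counts of reads per gene. Trimmomatic, FastQC, HISAT2, featureCounts and DESeq2 are named in the submitters' processing notes, with builds hg38 and GRCh38; versions, annotation release and strand setting are not given in the sources used here. Antisense and paralogous genes therefore carry more doubt.

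Counts of all 12 libraries were fitted in 1 model with edgeR 4.0.16 in R 4.3.3 (TMM scaling, filterByExpr by group, robust quasi-likelihood F test, Benjamini-Hochberg adjustment over all genes tested), and an adjusted p under 0.05 was a call. All adjusted p-values in the text are from edgeR unless DESeq2 1.42.0 or limma 3.58.1 (voom) is named. CPM values use the TMM-scaled totals. The 6 crizotinib and combination libraries were also fitted alone, without and with the replicate number as a block (16412 genes after their own filter). Alternatives were other scalings, filters and tools, library quality weights, an offset for GC content and length (splines with 5 degrees of freedom), removal of mitochondrially encoded genes, and each library left out. Alternatives to the blocked 6-library fit were chosen after seeing the data. The 12-library fit and the 6-library fits without and with the block were run on simulated counts with known changes. Those counts held no replicate effect and no GC trend, and the offset was not run on them, so they cannot speak to either.

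The numbers were taken to pair libraries because deviations from the group means correlated over 17096 genes at 0.22, 0.62 and 0.27 for numbers 1, 2 and 3. Crizotinib library 1 correlated more highly, at 0.42, with combination library 3, and crizotinib library 3 correlated at 0.08 with combination library 1. Deviations from a group mean cancel out over its 3 libraries. Libraries numbered 2 that stand apart therefore raise the correlations among the others by themselves. For this reason the correlations cannot decide whether number 1 belongs with 1 or with 3. The labels give the numbers without saying what they mark.

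GENCODE 29 (GRCh38) served as annotation. It lists 96.5% of the table's IDs, and a GC value was found for 98.7% of the genes tested. Promoter sequences came from RefSeq (GRCh38.p14), which matched 10685 of 17064 tested symbols, and were printed only up to the GENCODE gene start.

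Named genes were called genes whose groups did not overlap and whose mean log2 CPM was 1 or more, genes called in all 3 fits without GC offset, up to 4 members of each list with a called member, and the targets and pathway genes of the series title. Genes from the blocked fits were named after their values were seen. The comparison, its members and the 41 gene lists were chosen with earlier results of these data known.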

Additional observations from a re-analysis of the deposited data

Results flagged for a closer look

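For 12 genes the change on adding IN10018 differed with and without crizotinib, by the interaction test of the 12-library edgeR fit. On the log2 scale the difference was -2.26 for FOS and -1.80 for FOSB. It was 3.01 for ATF3, 1.72 for TRIB1, 1.49 for NR4A2 and 1.28 for KLF6. It was 3.59 for RPL13P12, 2.89 for ZNF428, 1.99 for LINC01315, 1.80 for SLC39A3, 1.50 for H2AX and 1.17 for NXT1. With an offset for GC content and length over 12 libraries H2AX lost its call (0.98, adjusted p = 0.30, against 9.3e-10 to 0.30 over its 24 alternatives).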

How the results depend on the processing

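FOS and FOSB kept their direction and their call in all 26 alternatives to the 12-library fit and all 12 alternatives to the blocked 6-library fit. The other calls did not. Against 0 higher and 2 lower, the counts were 772 and 972 with no filter, 19 and 5 with DESeq2, 4614 and 5129 with library quality weights in limma-voom, 90 and 4 with the replicate block over 12 libraries, 206 and 186 with that block and the GC content and length offset, 1987 and 1803 with the block in 6 libraries, and 1877 and 2475 with both libraries numbered 2 left out. Leaving out 1 library gave 0 to 2614 higher and 2 to 3026 lower. Against 12 interaction calls there were 299 with no filter, 63 with DESeq2, 5224 with quality weights, 23 with the replicate block, 22 with the offset, 28 with both, 1917 with the libraries numbered 2 left out, and 2 to 805 with 1 library left out. For the blocked 6-library fit (1987 and 1803), DESeq2 gave 972 higher, the offset 841 and 788, and leaving out 1 number 886 to 1794 higher and 720 to 1867 lower. BAD changed sign, from 0.46 with the block to -0.10 with the offset (adjusted p = 0.60). The cause was not tested in any of these. Depth limits genes such as FOSB and ATF3, with 39 to 47 reads and 6 to 13 reads in the combination libraries. The floor given for ROS1 covers counting error only. The SE and SD values also hold the spread among these libraries, and no spread beyond them. The blocked fits have 2 residual degrees of freedom, and 1 without a number, so edgeR's shared estimate of spread carries most of the weight.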

Other observations

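Other gene groups of the blocked 6-library fit are given here as values, named after their values were seen. Over all genes 12.1% rose and 11% fell with the block, 5.12% and 4.8% with the GC content and length offset, and 5.38% and 4.37% without the libraries numbered 2. Of 14 genes of G1 cyclins, kinases and inhibitors, 5 (35.7%) fell and 2 (14.3%) rose with the block, 5 fell and none rose with the offset, and 2 (14.3%) fell and 1 rose without the libraries numbered 2. RB1, the retinoblastoma gene that restrains entry into S phase, measured 85.5, 31.2 and 60.3 CPM in crizotinib libraries 1, 2 and 3 and 40.1, 22.4 and 44.5 CPM in the combination libraries (-0.67 ± 0.12, edgeR adjusted p = 0.00072, and with the offset -0.42, adjusted p = 0.016). CDK6, a kinase that acts on it, fell as well (-0.52 ± 0.11, adjusted p = 0.0018). With the block over 12 libraries both calls were lost (adjusted p = 0.082 for RB1 and 0.061 for CDK6). Within each number the combination was lower for both, but crizotinib library 2 lay inside the range of the combination libraries.

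Among 21 genes of the BCL2 family and caspases, 1 (4.76%) fell and 3 (14.3%) rose with the block, 2 (9.52%) fell and none rose with the offset, and 1 fell and 2 rose without the libraries numbered 2. With the block the share that rose was near that of all genes and the share that fell was below it. BCL2L11, which encodes the death-promoting protein BIM, fell from 21.5, 9.48 and 15.9 CPM to 9.99, 7.02 and 12.1 CPM (-0.65 ± 0.15, edgeR adjusted p = 0.0035, and with the offset -0.51, adjusted p = 0.024). Without the libraries numbered 1 its value was -0.40 (adjusted p = 0.050), just above the limit, and with the block over 12 libraries it was -0.66 (adjusted p = 0.081), so it was called in neither. Of 30 extracellular matrix genes 6 (20%) rose and 3 (10%) fell with the block, 1 (3.33%) rose and 3 (10%) fell with the offset, and 2 (6.67%) rose and none fell without the libraries numbered 2. COL7A1, a collagen of anchoring fibrils, rose from 4.15, 7.88 and 3.56 CPM to 9.46, 12.5 and 7.35 CPM (0.95 ± 0.16, adjusted p = 0.00039, and with the offset 0.65, adjusted p = 0.015).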
